A study of Mus musculus with 26 samples.

Results

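The genes described here encode subunits of the mitochondrial respiratory chain and of ATP synthase, together with cytochrome c. They were taken from a list of 39 symbols, of which 39 were measured, out of 19505 genes with a value on the arrays. Each of the 39 was measured by 1 transcript cluster, the array's unit of measurement for a gene. The list holds 18 subunits of complex I, 4 of complex II, 6 of complex III, cytochrome c (Cycs), 7 subunits of complex IV and 3 of complex V. Ndufa4 was counted with complex IV, where its protein is found despite its name.

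The data are 26 one-colour expression arrays of NSPCs (neural stem and progenitor cells) from 13 cultures. Such cells divide in culture and can give rise to neurons and glia. The cultures were grown from C57BL/6 mouse telencephalon at postnatal day 0, 1 culture per animal, in medium with the growth factors EGF and FGF-1. Cultures 1 to 6 were wild type (WT) and cultures 7 to 13 were SOX2 knockout (SOX2 KO). After passage 3 each culture gave 1 array after 4 h of 100 nM dexamethasone (Dex), a synthetic ligand of the glucocorticoid receptor, and 1 array after 4 h of the ethanol vehicle. How the Sox2 gene was inactivated, and in which cells, is not given in the sources used here. Both sexes were used, and the sex behind each array was not used. Levels are the deposited values, read as log2 expression, so a difference between groups is a log2 difference. The cells of a culture were measured together, so a smaller share of one cell type and less RNA per cell cannot be told apart.

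The respiratory chain sits in the inner mitochondrial membrane. Complex I takes electrons from NADH and complex II takes them from succinate, both pass them to ubiquinone, and complex III hands them on to cytochrome c. Complex IV transfers them to oxygen, and ATP synthase, complex V, uses the proton gradient built up on the way to make ATP. Most subunits are encoded in the nucleus, and their genes are known to be served by the transcription factors NRF1, GABP (an ETS factor), YY1 and Sp1. Neural stem cells are known to lean on glycolysis more than the neurons they give rise to, and glucocorticoids are known to change mitochondrial gene expression in several tissues.

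The promoters of these genes were searched for short core motifs of those factors. RefSeq promoters on GRCm38.p6, 250 bases before to 50 bases after the start of each gene, were matched by gene identifier to 29 of the 39 genes. Ndufa2, Ndufb9, Ndufs1, Sdhc, Uqcrc2, Uqcrb, Uqcrq, Cyc1, Cox4i1 and Cox6c had no match. The NRF1 core GCGCATG, read on both strands, stood in promoters of 6 of the 29 genes (20.7%). It stood in those of 4.41% of all 27025 genes with promoters of that length, or 5.59% of the 15691 on the array. Here and below, a gene with several promoters counts once, if any of them holds the core. The 6 genes were Ndufa8, Ndufb8, Sdhb, Uqcrc1, Cycs and Cox5b. The YY1 core AAGATGG was found in 5 (17.2%, against 7.28% of all and 7.29% of those on the array) and the ETS core CCGGAAG in 4 (13.8%, against 9.93% and 13.2%). The Sp1 core GGGCGGG was found in 9 (31.0%), above its share of all promoters (27.9%) and below its share of those on the array (38.4%). At least one of the NRF1, ETS and YY1 cores was present in 13 of the 29 (44.8%, against 19.5% of all). The share of those on the array was not counted for this combination. For the glucocorticoid receptor, the core AGAACA was present in 5 of the 29 (17.2%), in 21.3% of all promoters and in 18.4% of those on the array. A match is a description of letters and not of binding, and none of these cores contains another.

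Sequences for 4 of the promoters with an NRF1 core are given. The levels of Cycs, Ndufa8 and Sdhb return below. Cycs and Ndufa8 varied least between arrays, and Sdhb had the largest difference between genotypes in vehicle. Cox5b is shown as a gene of complex IV. Each sequence is the stretch of 200 bases before the annotated start, 5′ to 3′ on the strand of the gene. Capitals mark an NRF1 core (GCGCATG or its reverse complement) or an Sp1 core on the opposite strand (CCCGCCC). Cycs lies at chr6:50566570-50566769 on the minus strand, Ndufa8 at chr2:36049339-36049538 on the minus strand, Sdhb at chr4:140961071-140961270 on the plus strand and Cox5b at chr1:36691287-36691486 on the plus strand.
Cycs: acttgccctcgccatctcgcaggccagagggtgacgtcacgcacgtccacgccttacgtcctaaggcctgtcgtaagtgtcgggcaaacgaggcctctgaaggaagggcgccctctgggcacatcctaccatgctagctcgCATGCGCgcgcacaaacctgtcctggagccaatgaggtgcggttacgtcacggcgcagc
Ndufa8: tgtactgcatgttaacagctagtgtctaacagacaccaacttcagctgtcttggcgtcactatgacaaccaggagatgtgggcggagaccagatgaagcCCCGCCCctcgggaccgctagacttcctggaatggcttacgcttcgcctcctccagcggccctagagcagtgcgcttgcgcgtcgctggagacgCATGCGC
Sdhb: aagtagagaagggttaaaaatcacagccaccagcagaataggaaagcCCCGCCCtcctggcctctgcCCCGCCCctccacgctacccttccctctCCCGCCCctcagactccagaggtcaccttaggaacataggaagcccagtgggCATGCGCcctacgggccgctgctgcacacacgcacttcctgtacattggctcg
Cox5b: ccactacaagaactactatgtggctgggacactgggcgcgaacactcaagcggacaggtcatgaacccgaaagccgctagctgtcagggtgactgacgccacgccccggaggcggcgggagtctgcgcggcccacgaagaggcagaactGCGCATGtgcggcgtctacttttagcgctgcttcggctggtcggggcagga
Cycs and Cox5b each show 1 NRF1 core and no Sp1 core in this window. Ndufa8 shows 1 of each, and Sdhb shows 1 NRF1 core and 3 Sp1 cores.

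The labels were checked against the genes they concern. Sox2, the gene named in the knockout and a marker of stem cells in the brain, lay between 12.17 and 14.39 on the 12 WT arrays and between 3.92 and 6.50 on the 14 SOX2 KO arrays. Fkbp5, a glucocorticoid receptor target, was higher in the array labelled Dex by 1.27 to 1.87 in 5 WT cultures and by 1.79 to 2.83 in the 7 SOX2 KO cultures. In culture 4 (WT) it was 14.39 in the array labelled vehicle and 12.36 in the one labelled Dex, opposite to its labels. Values for that culture are given by label. The Dex differences named in WT, and the differences of Dex effects between genotypes, are also given without it. For SOX2 KO against WT such values are given for Sdhb and complex V. The cultures fell into 3 clusters by their overall profile, which no label explains. Cluster 1 held cultures 1, 2, 3, 7 and 8, cluster 2 held cultures 4, 10 and 12, and cluster 3 held cultures 5, 6, 9, 11 and 13. Their upper quartiles were 10.09 to 10.43, 9.38 to 9.78 and 9.58 to 9.79. Of 11 neural stem cell markers, 11 were above the median gene in WT and 10 in SOX2 KO, where Sox2 was the exception. Of the 7 microglial and 5 endothelial markers, 0 were above it in WT, and in SOX2 KO 1 microglial and 0 endothelial markers were. Without Sox2, the other 10 neural stem cell markers averaged 12.23 to 12.60 on WT vehicle arrays and 12.23 to 12.79 on SOX2 KO vehicle arrays. The astrocyte list averaged 9.09 to 10.81 (median 10.56) on WT vehicle arrays and 9.04 to 10.62 (median 9.66) on SOX2 KO vehicle arrays. It was thus lower in SOX2 KO by its median. Over all arrays of a cluster, the same list averaged 10.64 in cluster 1, 9.77 in cluster 2 and 9.75 in cluster 3. The ranges overlapped, at 10.20 to 11.13, 8.92 to 10.72 and 9.06 to 10.43. Of the 6 WT cultures 3 were in cluster 1, and of the 7 SOX2 KO cultures 2. The medians by genotype therefore do not separate genotype from array cluster. The part of the astrocyte list in the differences below was not tested.

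The respiratory chain genes were highly expressed in every group. The median level of the 39 lay between the 91.3 and 94.5 percentile of the genes on each array, and the mean level of single genes between the 66.0 percentile (Ndufb8) and the 99.9 (Cox7c). Averaged over the 39, the level was 13.24 ± 0.12 (SD, n = 6) in WT vehicle, 13.25 ± 0.15 (n = 6) in WT Dex, 13.05 ± 0.23 (n = 7) in SOX2 KO vehicle and 13.01 ± 0.22 (n = 7) in SOX2 KO Dex. The vehicle arrays ranged from 13.07 to 13.43 in WT and from 12.78 to 13.31 in SOX2 KO, so the ranges overlapped. The lowest average of all was 12.65, in the Dex array of SOX2 KO culture 12, and the highest 13.47, in the Dex array of WT culture 3.

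**Figure D1:**
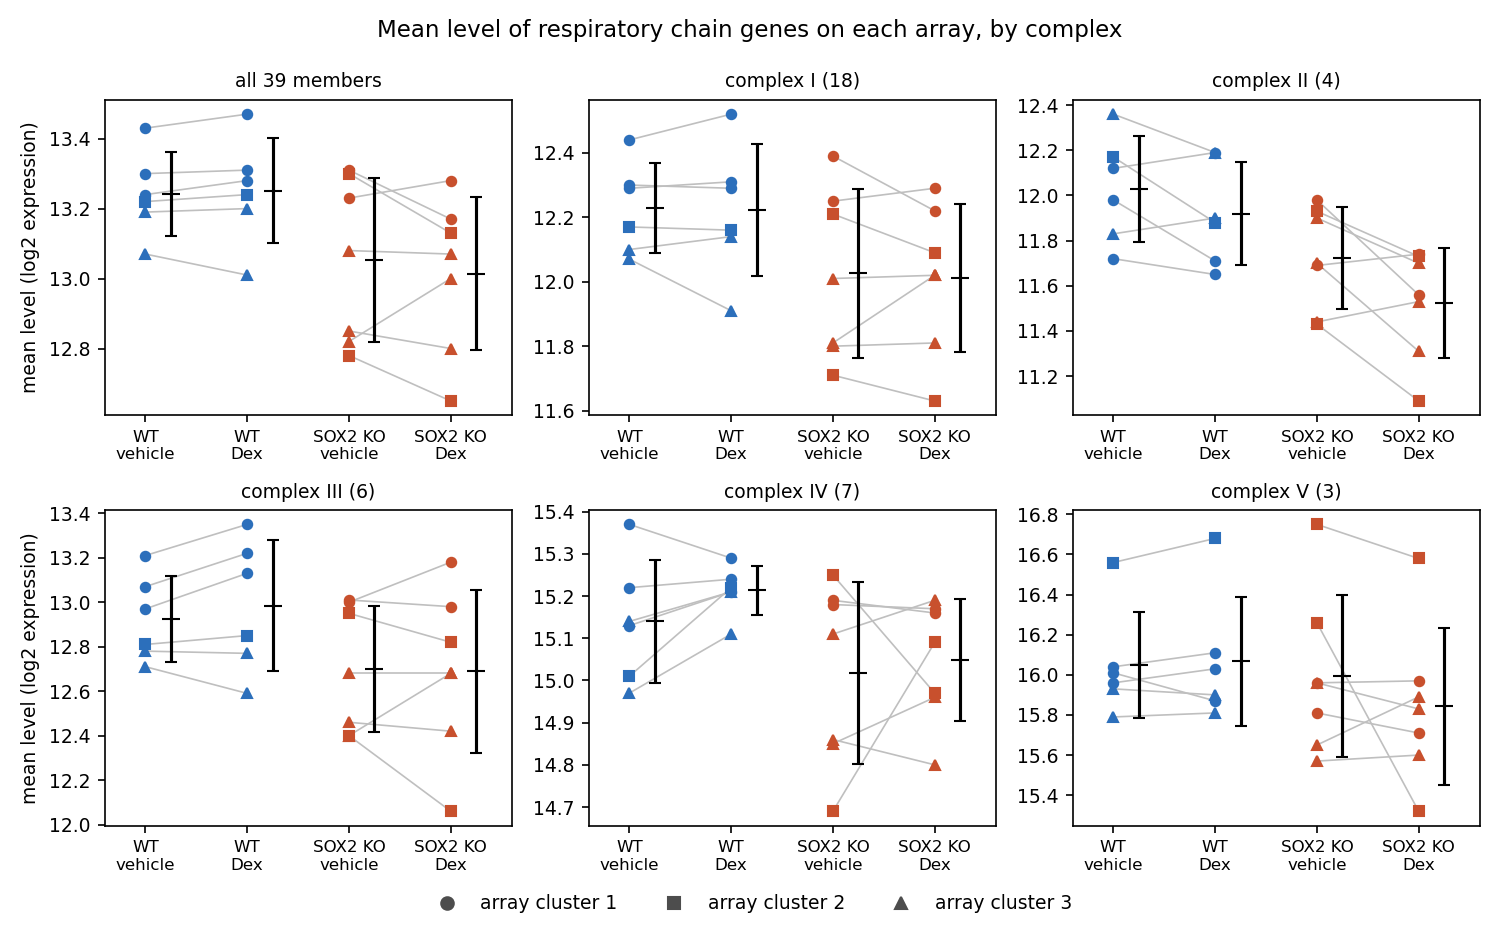
Mean log2 level of the respiratory chain genes on each array (y axis, log2 expression), for all 39 genes and for complexes I to V, by genotype and treatment (x axis). Points are arrays, grey lines join the vehicle and Dex array of a culture, marker shapes give the array cluster, and black bars are the group mean ± SD (n = 6 WT and 7 SOX2 KO). SOX2 KO arrays lie lower on average in each panel, with overlapping ranges, but for complex V in vehicle not without WT culture 4, one of the high points from array cluster 2.

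The first question was whether 4 h of Dex changed these genes in WT cells. None of the 39 passed the threshold (adjusted p under 0.05 in limma, with the culture as a block), and neither did any gene on the array, so the background was 0%. Without culture 4, 33 of all genes passed and 0 of the 39. At an unadjusted p under 0.05 there were 3 of 39, beside 755 genes of 19505 (3.87%). The median difference of the 39 was 0.04, against 0.00 for all genes, with 22 genes higher, 16 lower and 1 equal. The 39 differences ran from -0.45 to 0.29, and the 95% interval of each lay within 1 log2 unit of 0.

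Ndufb3 and Ndufb10, accessory subunits of the membrane arm of complex I, had the most negative differences. Ndufb3 was 10.06, 9.95, 10.05, 10.15, 10.08 and 9.91 in vehicle in cultures 1 to 6, and 9.34, 9.75, 10.04, 9.44, 9.60 and 9.33 in Dex. It was lower in the Dex array in 6 of 6 cultures, though by only 0.01 in culture 3. The mean difference was -0.45 ± 0.19 (SE, 95% interval -0.84 to -0.06, limma adjusted p = 0.998). Ndufb10 was 9.68, 9.61, 9.27, 10.13, 9.20 and 9.98 in vehicle and 9.69, 9.37, 8.76, 9.95, 9.13 and 8.67 in Dex. Culture 6 had the widest gap, and in culture 1 the arrays differed by 0.01. Ndufb10 differed by -0.38 ± 0.15 (95% interval -0.71 to -0.06, limma adjusted p = 0.998). Without culture 6 it was -0.20. Without culture 4 the differences were -0.40 for Ndufb3 and -0.42 for Ndufb10.

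Ndufs8, a subunit of complex I that carries iron-sulfur clusters, was the most positive. It was 13.42, 13.42, 13.74, 12.78, 13.25 and 12.98 in vehicle and 13.66, 13.75, 13.83, 13.27, 13.46 and 13.37 in Dex, higher in 6 of 6 cultures. The mean difference was 0.29 ± 0.14 (95% interval 0.01 to 0.58, limma adjusted p = 0.998), and 0.25 without culture 4. Uqcrq, a small subunit of complex III, was 12.83, 12.90, 13.33, 11.95, 12.63 and 12.64 in vehicle and 13.16, 13.17, 13.39, 12.28, 12.82 and 12.88 in Dex. It too was higher in 6 of 6 cultures, by 0.24 ± 0.14 (95% interval -0.05 to 0.52). Sdha, the flavoprotein subunit of complex II that oxidises succinate, was lower in 5 of 6 cultures, at -0.36 ± 0.21 (95% interval -0.80 to 0.07). Without culture 4, Uqcrq was at 0.22 and Sdha at -0.28. Cox5a of complex IV differed by 0.16 ± 0.13 (0.10 without culture 4), Atp5o of the ATP synthase stalk by 0.04 ± 0.13 and Cycs by 0.00 ± 0.13, and without culture 4 by 0.04 and 0.01. The counts of cultures include culture 4, in which each of these 5 genes of smallest p had the sign of its mean difference. The adjusted p of these genes was 0.998 or above.

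In SOX2 KO cultures, none of the 39 genes passed the threshold under Dex either. With culture as a block, 0 of 39 were called, beside 14 of all genes (0.0718%), all of them higher, among them Fkbp5 at 2.20 ± 0.32 (limma adjusted p = 0.0103). Without culture 4, which enters through the shared spread, 49 of all genes and 0 of the 39 were called. At an unadjusted p under 0.05 there were again 0 of 39, beside 10.2% of all genes. The median difference was -0.04, against -0.02 for all genes, with 15 genes higher and 24 lower, and the range was -0.40 to 0.21. The sign of that median depended on scaling, since it was 0.05 after centring arrays on their upper quartile.

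Sdha had the smallest p. It was 8.93, 8.12, 8.61, 9.95, 9.40, 9.17 and 9.48 in vehicle in cultures 7 to 13 and 7.85, 8.67, 8.68, 9.61, 9.14, 8.59 and 8.35 in Dex. The Dex array was lower in 5 of 7 cultures, with the widest gaps in cultures 7 and 13. The difference was -0.40 ± 0.19 (95% interval -0.80 to 0.00, limma adjusted p = 0.495), close to the -0.36 seen in WT. Sdhc, a membrane anchor of complex II, differed by -0.21 ± 0.12 (adjusted p = 0.570). In SOX2 KO all 4 complex II genes lay below 0, with Sdhb at -0.15 and Sdhd at -0.05. In WT, Sdhb was at -0.10, Sdhc at -0.05 and Sdhd at 0.07, so Sdha was the most negative in both genotypes. The mean of the 4 differed by -0.20 in SOX2 KO and by -0.11 in WT (-0.08 without culture 4). By culture, complex II differed by -0.27, -0.07, 0.06, -0.29, -0.17 and 0.07 in WT and by -0.42, 0.05, 0.09, -0.20, -0.21, -0.34 and -0.39 in SOX2 KO. That is lower in 9 of the 13 cultures, culture 4 included, and the SD between cultures was 0.16 in WT and 0.20 in SOX2 KO.

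Among the other complexes, Ndufa2, an accessory subunit of complex I, differed by 0.21 ± 0.11 (adjusted p = 0.551, 0.14 without culture 12) and Ndufa9, another, by -0.19 ± 0.12 (adjusted p = 0.604). Uqcrq was at 0.21 ± 0.13 (adjusted p = 0.585), higher in 5 of 7 cultures, and at 0.09 without culture 12. Ndufa4 of complex IV was at 0.18 ± 0.14, and at 0.01 without culture 12, in which it differed by 1.20. Atp5c1, the gamma subunit that turns inside ATP synthase, was at -0.14 ± 0.11 (-0.08 without culture 12), and Cycs at -0.07 ± 0.12. Culture 12 also held the largest Dex difference of complex V, -0.95, against -0.17 to 0.24 in the other 6 SOX2 KO cultures, and the complex V mean was -0.15 with it and -0.02 without it. Averaged over the 39 genes, the Dex difference was 0.01, 0.04, 0.04, 0.02, 0.01 and -0.06 in WT cultures 1 to 6 and -0.13, 0.05, 0.18, -0.16, -0.01, -0.14 and -0.05 in SOX2 KO cultures 7 to 13. The SD over cultures was 0.04 in WT and 0.12 in SOX2 KO. The median level of the 39 on each array gave another picture in WT, with differences of 0.18, 0.23, 0.09, 0.17, 0.19 and 0.16, a mean of 0.17 and 6 of 6 cultures higher. In SOX2 KO it differed by -0.11, 0.21, -0.01, -0.27, -0.06, 0.19 and 0.21, with a mean of 0.02 and 3 of 7 higher. The median rests on the genes in the middle of the 39 levels, and neither summary was tested.

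**Figure D2:**
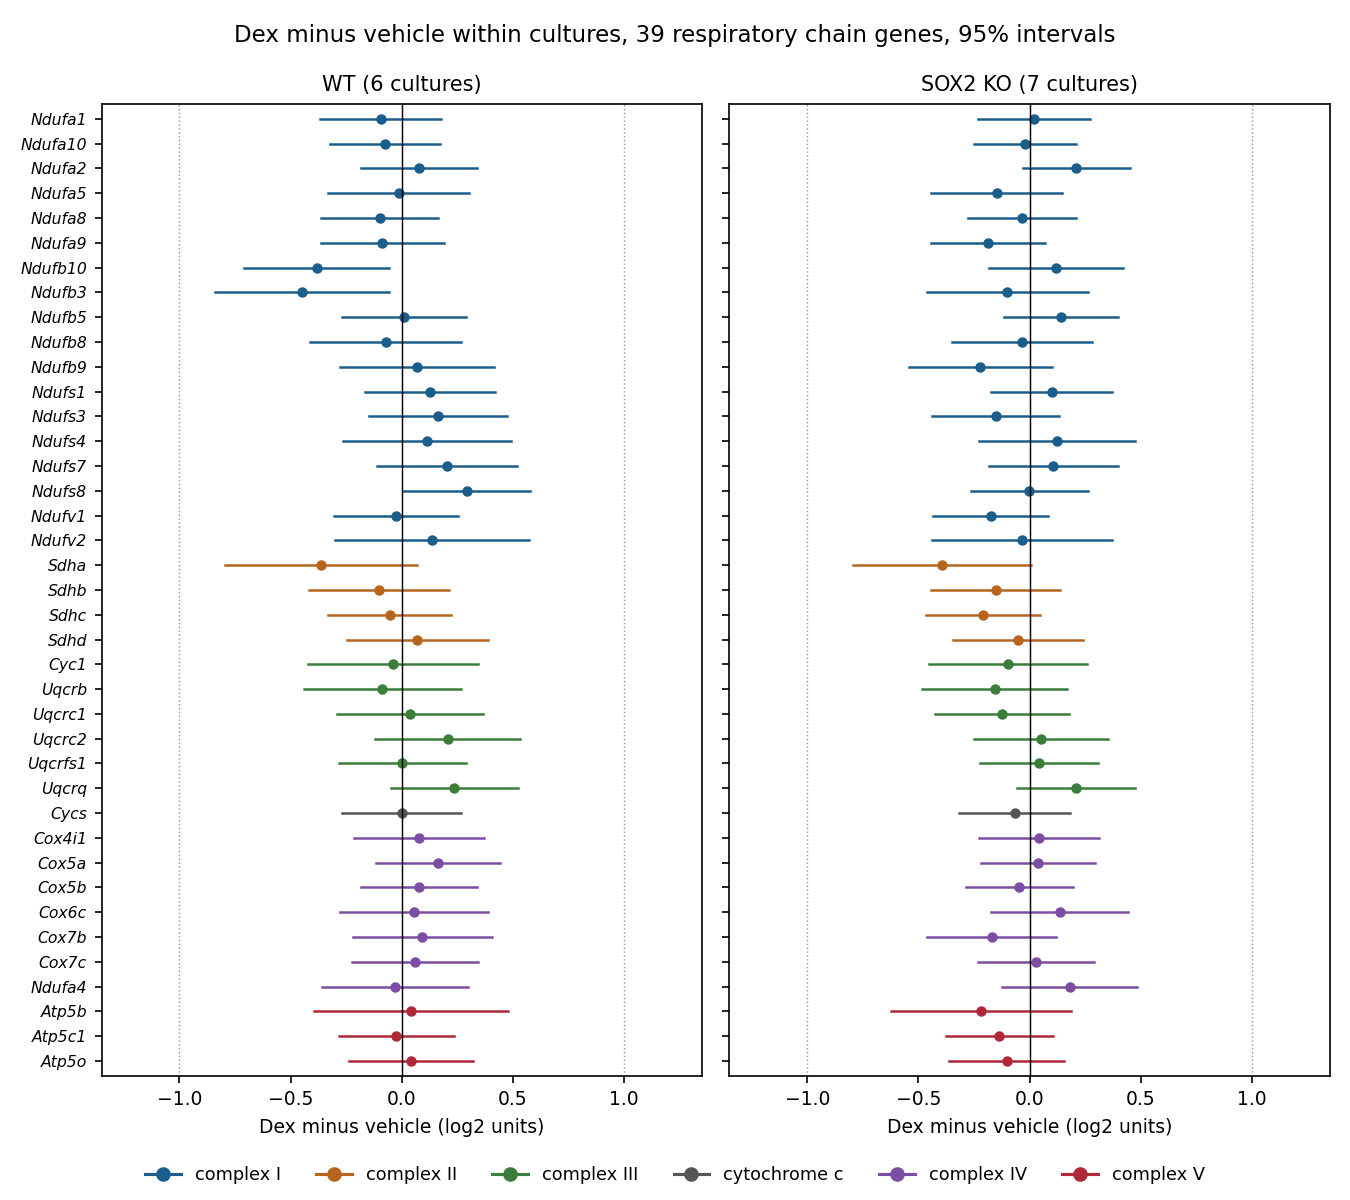
Dex minus vehicle (x axis, log2 units) for each of the 39 genes (y axis) in WT and in SOX2 KO, with 95% intervals from limma and colours by complex. The intervals all lie within 1 log2 unit of 0, and those of Ndufb3, Ndufb10 and Ndufs8 in WT leave out 0 before adjustment.

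The genotypes were then compared in their Dex effects. The difference of the effects (SOX2 KO minus WT) passed the threshold for 0 of 39 genes and for 0 of all genes (0%), and at an unadjusted p under 0.05 for 1 of 39, beside 3.53% of all genes. The median was -0.07, against -0.03 for all genes, with 27 lower and 12 higher. Ndufb10 was the one, at 0.50 ± 0.21 (95% interval 0.06 to 0.95, limma adjusted p = 0.999). In SOX2 KO it was 9.13, 9.78, 9.12, 10.00, 8.86, 9.18 and 8.82 in vehicle and 9.50, 9.89, 9.22, 10.07, 8.69, 9.35 and 9.01 in Dex, higher in 6 of 7 cultures where WT was lower in 5 of 6. Ndufb3 differed by 0.35 ± 0.25, Ndufs8 by -0.29 ± 0.18, Ndufs3 by -0.32 ± 0.20 (-0.17 without culture 12) and Cox7b of complex IV by -0.26 ± 0.20 (-0.16 without it), each at an adjusted p of 0.999. Without culture 6 the difference of Ndufb10 was 0.32, and without culture 10 that of Ndufb3 was 0.22. Without culture 4 the values were 0.54 (Ndufb10), 0.30 (Ndufb3), -0.25 (Ndufs8), -0.34 (Ndufs3) and -0.25 (Cox7b).

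Loss of SOX2 was the second question. In vehicle, 35 of the 39 genes had a lower mean in SOX2 KO than in WT and 4 a higher one, and the median difference was -0.21. None passed the threshold in limma, beside 109 of all genes (0.559%), of which 37 rose (0.190%) and 72 fell (0.369%). At an unadjusted p under 0.05 there were again 0 of 39, beside 5.17% of all genes. Of all genes, 55.2% had a lower mean and the median was -0.03, and of the 6635 genes expressed at or above the lowest of the 39, 60.9% were lower with a median of -0.06. No gene of the 39 had groups that did not overlap, where 0.359% of all genes lay wholly below WT and 0.159% wholly above.

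By complex, 17 of 18 complex I genes had a lower mean in SOX2 KO (median -0.19), as did 4 of 4 of complex II (-0.28), 6 of 6 of complex III (-0.25), 6 of 7 of complex IV (-0.19) and 1 of 3 of complex V (0.01). Sdhb, the iron-sulfur subunit of complex II, had the largest difference. Its vehicle levels were 13.56, 13.80, 13.81, 12.81, 13.62 and 13.18 in WT cultures 1 to 6 and 13.63, 13.46, 12.88, 12.31, 13.41, 12.13 and 12.77 in SOX2 KO cultures 7 to 13. The lowest WT value was culture 4 and the lowest SOX2 KO values were cultures 10 and 12, the 3 cultures of array cluster 2. The difference was -0.52 ± 0.30 (95% interval -1.14 to 0.10, limma adjusted p = 1.00). Within array clusters 1, 2 and 3 it was -0.18, -0.59 and -0.38, and without culture 4 it was -0.65. Uqcrc1, a core subunit of complex III, was 12.87, 12.94, 13.20, 12.87, 12.60 and 12.05 in WT and 13.01, 12.45, 11.88, 12.73, 12.15, 11.95 and 12.16 in SOX2 KO, with the 2 groups overlapping over most of their range. It differed by -0.42 ± 0.27 (95% interval -0.97 to 0.12).

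In complex I, Ndufb3 was 9.87, 9.47, 9.04, 9.51, 10.22, 9.96 and 9.81 in SOX2 KO vehicle, where the 6 WT cultures stood within 9.91 to 10.15. It had the smallest p of the 39, at -0.34 ± 0.19 (95% interval -0.72 to 0.05), and -0.35, -0.42 and -0.31 within the array clusters. In the Dex arrays of the same cultures Ndufb3 differed by 0.01 ± 0.19 (95% interval -0.37 to 0.40). Within the clusters it was -0.22, 0.385 and 0.05 there. The same 6 WT vehicle arrays also enter its Dex difference in WT and its difference of Dex effects. Ndufa10 differed by -0.29 ± 0.17 and Ndufa1, a small accessory subunit, by -0.37 ± 0.23. Cox4i1, the largest nuclear subunit of complex IV, differed by -0.26 ± 0.18 (-0.17 without culture 3), Atp5o by -0.25 ± 0.20 and Cycs by -0.20 ± 0.17. The largest positive difference was 0.15 ± 0.18, in Cox7c of complex IV. All 39 had an adjusted p of 1.00, and for 37 of them the 95% interval lay within 1 log2 unit of 0.

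In Dex, 34 of 39 genes had a lower mean in SOX2 KO and 5 a higher one, with a median of -0.27 against -0.06 for all genes. Again 0 of 39 passed the threshold, beside 110 of all genes (0.564%), of which 36 rose (0.185%) and 74 fell (0.379%). Of the 39, 0 had groups that did not overlap, where 0.292% of all genes lay wholly below WT and 0.190% wholly above. At an unadjusted p under 0.05 there were 2 of 39, beside 7.56% of all genes. Of all genes 58.6% had a lower mean, and of the 6635 at or above the level of the lowest of the 39, 67.1%. The vehicle and Dex comparisons use the same cultures and are not independent of each other.

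The 2 genes were Ndufs3 and Uqcrc1. Ndufs3, a core subunit of the peripheral arm of complex I, was 14.08, 14.01, 14.23, 13.72, 13.96 and 13.83 in WT Dex and 13.84, 13.94, 13.57, 13.12, 13.78, 12.05 and 13.54 in SOX2 KO Dex. Culture 12 was far below the rest. The difference was -0.57 ± 0.23 (95% interval -1.04 to -0.09, limma adjusted p = 0.502), and -0.34 without culture 12 (adjusted p = 0.774). Uqcrc1 was 13.01, 13.15, 13.29, 13.05, 12.29 and 11.96 in WT Dex and 12.81, 12.96, 12.35, 12.43, 11.89, 11.32 and 11.70 in SOX2 KO Dex, again lowest in culture 12. It differed by -0.58 ± 0.27 (95% interval -1.13 to -0.04, limma adjusted p = 0.607), and by -0.44 without culture 12.

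Sdhb was 13.57, 13.49, 13.86, 12.64, 13.50 and 13.11 in WT Dex and 13.51, 13.23, 13.22, 12.46, 13.01, 11.20 and 12.90 in SOX2 KO Dex. It differed by -0.57 ± 0.30 (95% interval -1.19 to 0.05, limma adjusted p = 0.725), by -0.31 without culture 12 and by -0.72 without culture 4. Sdhd, a membrane anchor of complex II, differed by -0.43 ± 0.22 (adjusted p = 0.709). Atp5o was 15.03, 14.88, 15.15, 14.84, 14.94 and 14.73 in WT Dex and 14.58, 14.87, 14.76, 14.84, 14.73, 13.63 and 14.36 in SOX2 KO Dex. It differed by -0.39 ± 0.20 (adjusted p = 0.680), and by -0.24 without culture 12. By complex, 15 of 18 genes of complex I had a lower mean (median -0.24), 4 of 4 of complex II (-0.36), 6 of 6 of complex III (-0.25), 5 of 7 of complex IV (-0.27) and 3 of 3 of complex V (-0.18).

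**Figure D3:**
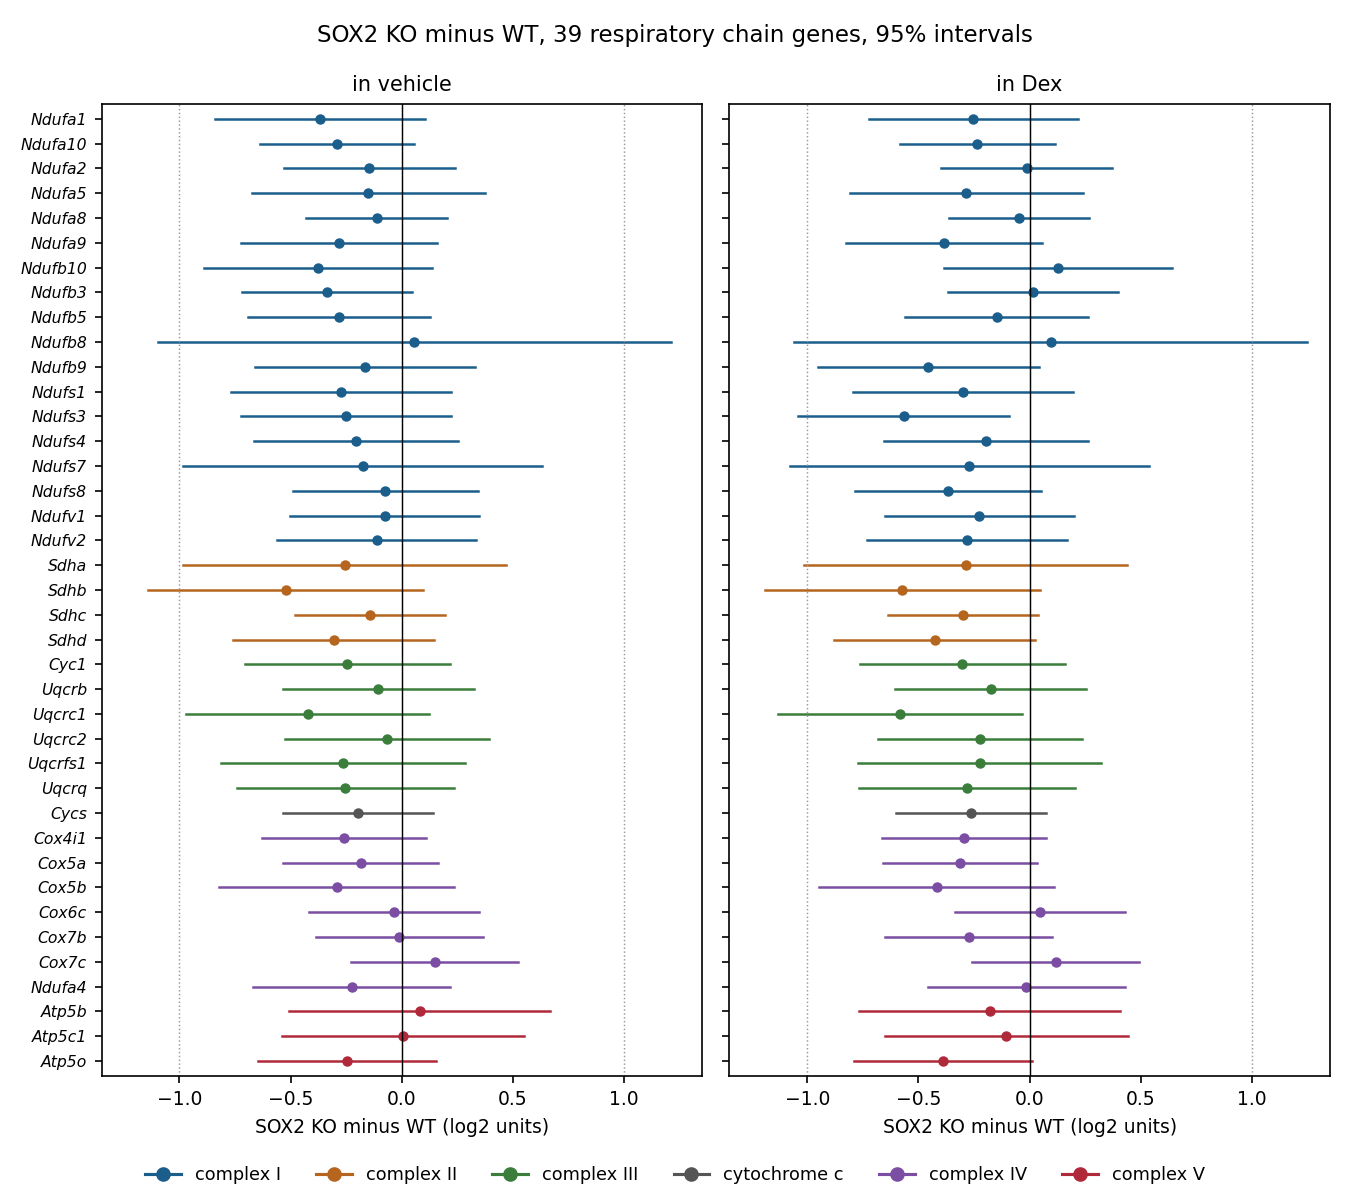
SOX2 KO minus WT (x axis, log2 units) for each of the 39 genes (y axis) in vehicle and in Dex, with 95% intervals from limma and colours by complex. Most points lie to the left of 0 in both panels while nearly all intervals cross it, and Ndufs3 and Uqcrc1 in Dex are the exceptions before adjustment.

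Averaged over the 39 genes, SOX2 KO differed from WT by -0.19 in vehicle and by -0.24 in Dex. The complexes differed in vehicle by -0.20 (I), -0.31 (II), -0.23 (III), -0.12 (IV) and -0.05 (V), and in Dex by -0.21, -0.40, -0.30, -0.16 and -0.22. Complex V turned to 0.05 in vehicle without culture 4 and was -0.10 in Dex. Without culture 12, complex III was at -0.19 and complex V at -0.14 in Dex, and complex IV at -0.07 in vehicle. Complex IV in vehicle was at -0.08 without culture 3, and complex V in Dex at -0.35 without culture 10. Complex II had the most negative difference in both treatments. Its arrays were at 12.03 ± 0.24 in WT vehicle, 11.92 ± 0.23 in WT Dex, 11.72 ± 0.23 in SOX2 KO vehicle and 11.52 ± 0.24 in SOX2 KO Dex. Within array clusters 1, 2 and 3, the average of the 39 differed by -0.05, -0.18 and -0.22 in vehicle and by -0.13, -0.35 and -0.15 in Dex, with 1 to 3 cultures per genotype in each cluster. Of the 39 genes, 14 (35.9%) were lower in SOX2 KO in all 3 clusters in vehicle, against 15.4% of all genes, and 19 (48.7%) in Dex, against 18%. None was higher in all 3 in either treatment, beside 3810 of all 19505 genes in vehicle and 2684 in Dex. The share among genes of like level was not counted. The 39 share the same cultures and are not independent of each other, and they were chosen with earlier results known. These counts are therefore descriptions. Without culture 12 the averages were -0.15 in vehicle and -0.18 in Dex, and the same values were found without cultures 4 and 12.

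How the arrays are scaled moved the size of this shift. Over the 13 cultures, the average of the 39 correlated with the array upper quartile at 0.78 as deposited and at -0.29 after quantile normalization. The cultures fall into clusters, so these correlations are descriptions. WT and SOX2 KO cultures numbered 3 and 2 in array cluster 1, 1 and 2 in cluster 2, and 2 and 3 in cluster 3. The part of the upper quartile in the shift was not tested. In vehicle the median of the 39 was -0.17 after quantile normalization, -0.16 after median centring and -0.11 after centring on the upper quartile, while the median of all genes was 0.01, 0.01 and 0.06. In Dex it was -0.18, -0.19 and -0.13, with all genes at 0.00, 0.02 and 0.08. Relative to the median of all genes, that of the 39 stood at -0.17 to -0.18 in vehicle and at -0.18 to -0.21 in Dex under these scalings, of which the 2 centrings move all genes of an array alike. The count with a lower mean was 33, 33 and 30 in vehicle and 31, 31 and 30 in Dex. Of the marker genes other than Sox2, Syt1 (neuronal) and Slc1a2 and Aldoc (astrocytic) passed the threshold as lower in both treatments. They come from lists with 7 neuronal and 7 astrocyte markers measured. In vehicle, the median percentile of the neuronal list was 66.4 in WT and 68.0 in SOX2 KO, and that of the astrocyte list 86.7 and 77.2. The part of these markers in the shift was not tested.

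Genes of the same pathway outside the list were compared in the same fits, and 0 of each set passed the threshold in any comparison. In vehicle, 36 of 40 measured other subunits of complexes I, III, IV and V had a lower mean in SOX2 KO (median -0.18), with Ndufb2 at -0.47 ± 0.27 and Cox6b1 at -0.39 ± 0.25. Of 42 assembly factors, which build the complexes, 38 had a lower mean (median -0.19). The smallest p among them were those of Timmdc1, a complex I assembly factor, at -0.39 ± 0.16 (limma adjusted p = 0.715), and Taco1, a translational activator for complex IV, at -0.44 ± 0.21 (adjusted p = 0.888). Of 74 mitochondrial ribosome genes 58 had a lower mean (median -0.17), and of 15 genes of the TCA cycle 12 (median -0.14), with citrate synthase (Cs) at -0.36 ± 0.19. Of 17 regulators of mitochondrial biogenesis 12 had a lower mean (median -0.10), among them the coactivator gene Ppargc1b at -0.44 ± 0.28. The tissue-specific subunit isoforms stood apart in sign, with 4 of 9 lower and a median of 0.02, though Cox6b2 was at -1.08 ± 0.32 (adjusted p = 0.178).

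In Dex the corresponding counts of lower means were 35 of 40 other subunits (median -0.21), 35 of 42 assembly factors (-0.26), 53 of 74 mitochondrial ribosome genes (-0.15), 12 of 15 TCA cycle genes (-0.18) and 12 of 17 biogenesis regulators (-0.11). Ndufv3 of complex I was at -0.76 ± 0.29 (limma adjusted p = 0.421), Taco1 at -0.53 ± 0.21 (adjusted p = 0.444) and Mrpl12, of the large ribosomal subunit, at -0.50 ± 0.21. Under Dex itself, the median of the assembly factors was -0.02 in WT and -0.11 in SOX2 KO, where 27 of 42 were lower and Sco1, a copper chaperone of complex IV, was at -0.53 ± 0.18 (adjusted p = 0.386). The 13 subunits encoded in mitochondrial DNA were not analysed here.

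The widest differences among the 39 genes were between cultures and not between the labelled groups. After removing group means, the SD over arrays had a median of 0.38 for the 39 and 0.46 for all genes, and 28 of the 39 had an SD below the median of all genes. Ndufb8, an accessory subunit of complex I, stood out with an SD of 1.15, above 99.6% of genes. Its vehicle levels were 8.65, 8.53, 8.34, 11.20, 7.91 and 8.09 in WT and 8.46, 8.23, 7.61, 10.74, 7.85, 10.38 and 8.63 in SOX2 KO. Its Dex levels were 8.26, 8.46, 8.57, 10.67, 8.33 and 8.00 in WT and 8.86, 8.41, 7.94, 10.51, 7.80, 10.28 and 7.87 in SOX2 KO. In both genotypes and both treatments the high values were those of cultures 4, 10 and 12, which make up array cluster 2, and the highest value in any other culture was 8.86. The 3 clusters had means of 8.48, 10.63 and 8.00, and 96.6% of the variance of Ndufb8 lay between them. The clusters were formed from all genes, these included, so their differences are descriptions.

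Other genes followed the clusters in different directions. Relative to the mean of clusters 1 and 3, cluster 2 was higher by 0.96 for Atp5c1, by 0.77 for Atp5b, the catalytic beta subunit of ATP synthase, and by 0.64 for Sdha. It was lower for Sdhb (-1.12), Ndufa5 (-0.91), Ndufa1 (-0.79) and Uqcrq (-0.74). Within complex II, Sdha and Sdhb thus lay on opposite sides. Ndufs7, a core subunit of complex I next to the ubiquinone site, had an SD of 0.78 and cluster means of 12.46, 11.85 and 10.94. Sdha had an SD of 0.70 and cluster means of 8.45, 9.52 and 9.30. Of the 39 genes, 28 were highest in cluster 1, 8 in cluster 2 and 3 in cluster 3, and cluster 1 also had the highest upper quartiles. The same count over all genes is not given. The share of variance between clusters had a median of 61.5% for the 39 and 56.1% for all genes. For the 6635 genes at or above the lowest of the 39 it was 69.6%.

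**Figure D4:**
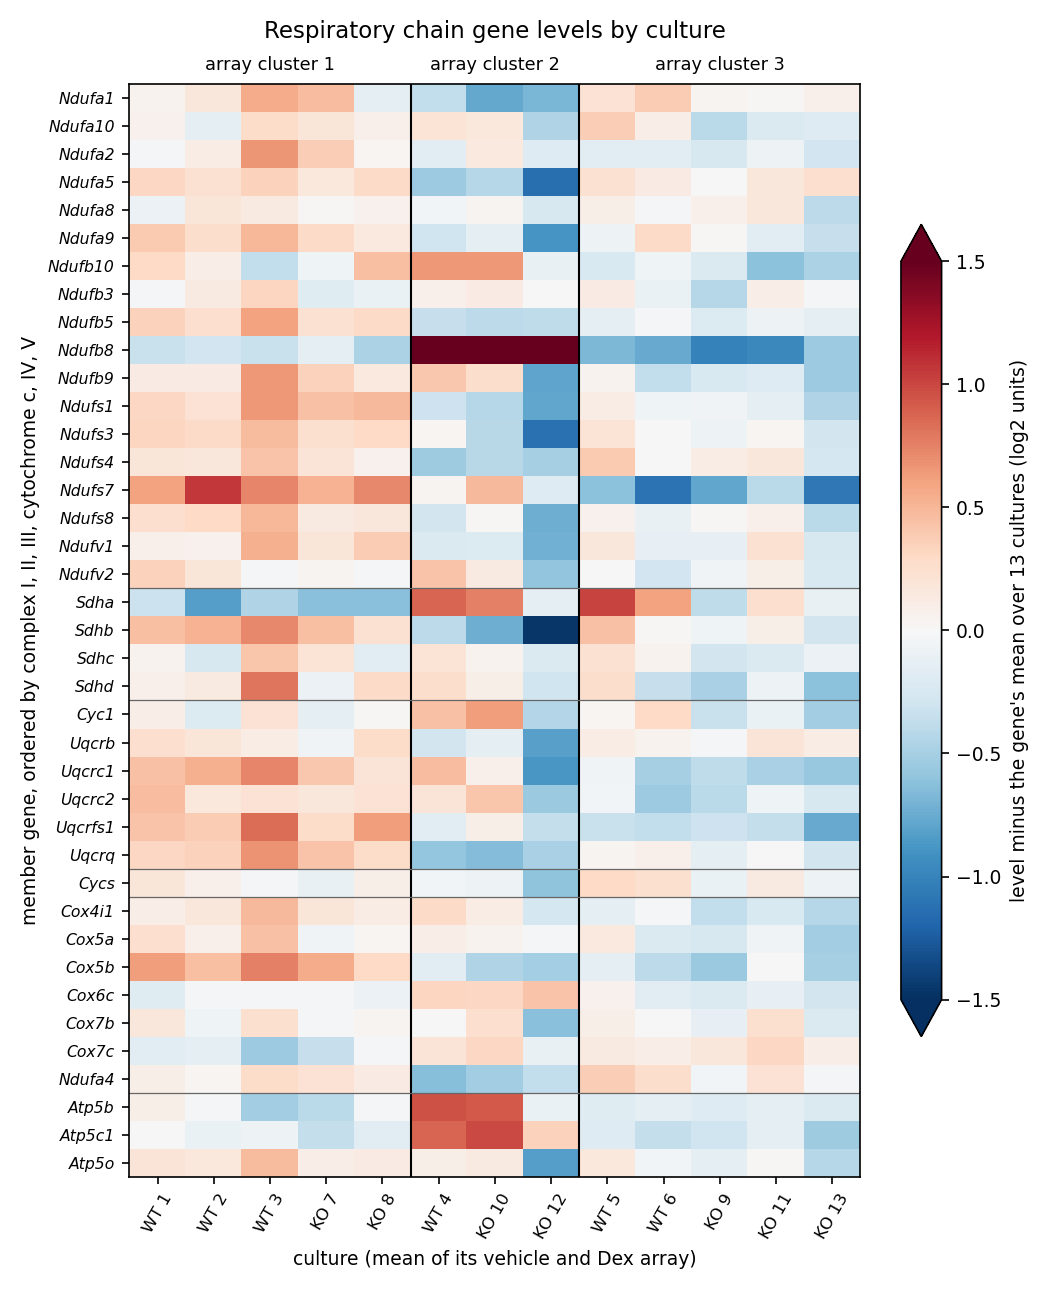
Level of each of the 39 genes (rows, by complex) in each of the 13 cultures (columns, by array cluster), as the mean of the vehicle and Dex array minus the mean of the gene over cultures, in log2 units. Cultures 4, 10 and 12 share high Ndufb8, culture 12 is low for many genes, and cultures 5, 6, 9, 11 and 13 are low for Ndufs7.

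Cytochrome c and Ndufa8, an accessory subunit of complex I, were the steadiest, with SDs of 0.23 and 0.20, and Sdhc was next at 0.23. Cycs lay between 16.37 and 16.77 in WT vehicle (median 16.47), 16.34 and 16.72 in WT Dex (median 16.50), 16.08 and 16.53 in SOX2 KO vehicle (median 16.38) and 15.52 and 16.61 in SOX2 KO Dex (median 16.29). Only the 15.52 of culture 12 lay under 16. Ndufa8 stayed between 13.12 and 13.99 on all 26 arrays, and Sdhc between 12.32 and 13.32. Both Cycs and Ndufa8 carry the NRF1 core shown above, and so does Ndufb8, the gene with the largest SD of the 39.

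Many of the lowest values were those of culture 12. Its Dex array held the lowest of the 26 values for 16 of the 39 genes and its vehicle array for 8 more. WT culture 3 held the highest value for 13 genes in Dex and 4 in vehicle. Such counts over all genes are not given. Sdhb in culture 12 was 12.13 in vehicle and 11.20 in Dex, and Atp5b was 18.69 and 16.86, the widest Dex difference of that gene. The upper quartile of the Dex array of culture 12, 9.38, was the lowest of all arrays, and its part in these values was not tested.

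**Figure D5:**
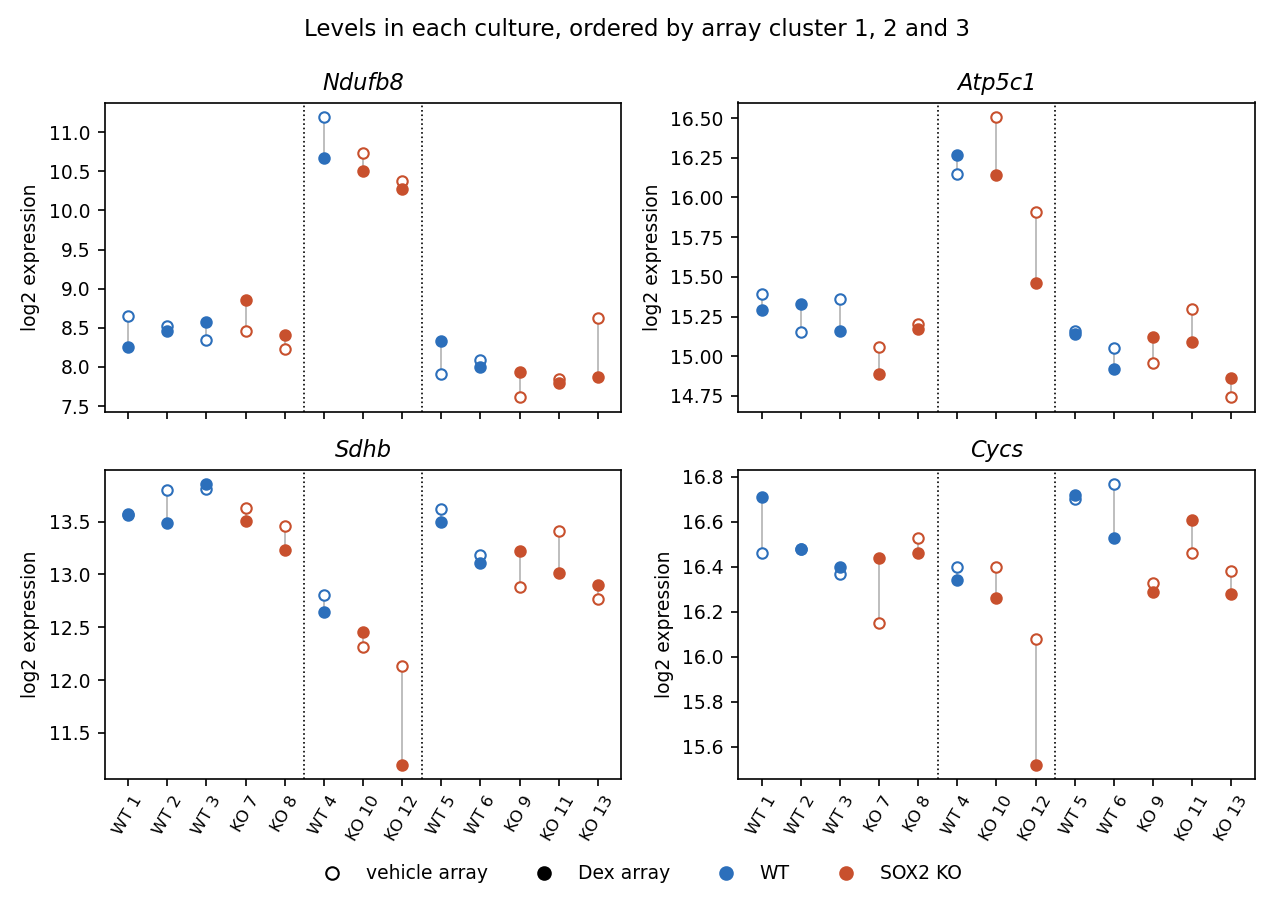
Log2 level (y axis) of Ndufb8, Atp5c1, Sdhb and Cycs in each culture (x axis, ordered by array cluster), with open circles for vehicle arrays, filled circles for Dex arrays and colours for genotype. Ndufb8 and Atp5c1 are high and Sdhb low in cultures 4, 10 and 12, and the vehicle and Dex arrays of a culture mostly lie close together.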

How the data were processed

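Biotin-labelled cRNA from 13 cultures was hybridised to 26 arrays, per the labels. The values are those of the authors' deposited table and were read as log2 from their range (2.22 to 19.81), since the base of the logarithm and the normalization are not given in the sources used here. The table holds 22206 transcript clusters, of which 19572 carry 1 symbol and 2634 none. For 55 genes with several, the one of highest mean was used, which left 19505 genes. No column lacked a sample. No 2 arrays held identical values.

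Comparisons used limma 3.58.1 in R 4.3.3 (lmFit and eBayes) over all genes and all 26 arrays, with Benjamini-Hochberg adjustment over the 19505 genes and a threshold of 0.05, without a minimum fold. Dex effects had the culture number as a fixed block. The labels number the vehicle and Dex arrays of one biological sample alike, and the arrays of a number correlated at 0.31 to 0.73 after removing group means (limit 0.1). Genotype comparisons used 1 mean per group. Means over the 39 genes or a complex carry no p-value. Errors are moderated standard errors (SE) for differences and standard deviations (SD) for levels, and intervals are 95% intervals from limma. The number of arrays limits the precision. The procedure was also run on simulated data without array clusters, with planted differences larger than any group difference of the 39 genes. Its outcome is not given here, and it does not cover differences as small as those of the 39.

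The 39 genes and the pathway and marker lists were chosen with earlier results of these data known. Named genes are the 5 members of smallest p in each comparison (or, where at least 3 passed, the largest rises and falls), the member of smallest p in each complex, the 3 of largest and 3 of smallest SD, and 2 of smallest p from each pathway list, and Sox2 and Fkbp5. Ndufa5, Atp5b, Cox7c and Cox5b were named after their values were seen, as were markers past the threshold. Correlations between members were planned and are not given, because the cultures fall into clusters of 3 to 5. Alternatives were other scalings, a filter on low means, averaging the transcript clusters of a gene, other variance models, fits with and without the block, array cluster or upper quartile as a covariate, only the arrays of the 2 groups, and leaving out each culture. Quantile normalization with the cluster covariate, and leaving out cultures 4 and 12, were added after seeing the data. Figures were drawn with matplotlib 3.10.9.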

Additional observations from a re-analysis of the deposited data

Results flagged for a closer look

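Each level and each Dex difference of the complexes and named genes was examined for a culture that stood far from the rest of its group, and 15 of 132 groups of values had one. Chance alone gives about 1 in 20 for a single group, but these groups are not independent. The same culture counts in vehicle and in Dex, and a complex counts beside its own genes. The total is therefore not a measure against chance. Culture 4 (WT) gave 7 of the 15. Its complex V average was 16.56 in vehicle and 16.68 in Dex, where the next culture was at 16.04 and 16.11. Its Atp5c1 level was 16.15 and 16.27, its Ndufb8 level 11.20 and 10.67, and its Ndufa4 level in vehicle 14.99, below the 15.63 of the next. Culture 12 (SOX2 KO) gave 3, with Atp5o at 13.63 and Cycs at 15.52 in Dex, and a Dex difference of -0.95 for complex V. Culture 3 (WT) was high for Cox4i1 in vehicle (13.98) and for Ndufa2 in Dex (12.39). Culture 6 (WT) was low for Cox5a in Dex (13.58) and was the one WT culture with a negative Dex difference over the 39 genes (-0.06). Culture 7 (SOX2 KO) was high for Sdhc in Dex (13.07).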

How the results depend on the processing

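None of the 39 genes passed the threshold in any of 23 alternatives for the Dex comparisons or 26 for the genotype comparisons, and the lowest adjusted p was 0.0823 (SOX2 KO against WT in Dex, array weights, Cox5a). The count with a lower mean in SOX2 KO ran from 30 to 38 in vehicle and from 30 to 36 in Dex. Counts over all genes moved more, for SOX2 KO against WT in vehicle and Dex: 109 and 110 as reported, 169 and 171 with quantile normalization, 378 and 561 with array weights, 376 and 397 with the array cluster as a covariate, 250 and 241 with the upper quartile as a covariate, and 378 and 395 with quantile normalization and the cluster covariate. With only the arrays of the 2 groups, Dex gave 72. The share of rises among these calls was 33.9% and 32.7% as reported, 39.6% and 47.9% with upper quartile centring, 42.0% and 45.0% with quantile normalization and 42.9% and 44.1% with median centring. Leaving out 1 culture gave 75 to 143 and 69 to 160 calls (69 without culture 1, 71 without culture 13), and averages over the 39 genes of -0.23 to -0.15 and -0.29 to -0.18. For Dex in WT, calls numbered 0 as reported, 1 with array weights, 0 to 33 leaving out 1 culture (33 without culture 4), 7 without culture 4 and without the replicate block, and 58 without cultures 4 and 12. For Dex in SOX2 KO there were 14, then 3 (without culture 13) to 49 (without culture 4), with 8 or 9 without culture 7, 8 or 11, and 66 without cultures 4 and 12. Taking the median level of the 39 genes on each array in place of their mean gave 0.17 for Dex in WT (0.01 as reported) and -0.15 for the difference of the Dex effects (-0.05). Cycs under Dex in SOX2 KO, -0.07, was 0.016 with upper quartile centring, -0.13 to 0.015 leaving out 1 culture (0.015 without culture 12) and 0.015 without cultures 4 and 12. The cause of these changes was not tested. Without the replicate block, Dex gave 0 calls in WT and 10 in SOX2 KO, and with the culture as a random replicate block the genotype comparisons gave 136 and 141, in each case with 0 of the 39 genes.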
